A study of Rattus norvegicus with 42 samples.

Results

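The genes described here encode 2 families of RNA-binding proteins that act in splicing, the heterogeneous nuclear ribonucleoproteins (hnRNPs, gene symbols beginning with Hnrnp) and the serine- and arginine-rich (SR) splicing factors (symbols Srsf followed by a number), together with Khdrbs1 and Tardbp. Of 30044 gene symbols shared by the count tables of both time points, 31 carried such a name and 30 were kept because they reached 10 counts in at least 4 libraries of a table: 17 Hnrnp genes, 11 Srsf genes, Khdrbs1 and Tardbp. The gene left out was Hnrnpab, which was listed at 0 in all 42 libraries. Enough counts for a test were present for 29 of the 30 genes at 3 months, 28 at 9 months and 30 in the fit of both tables.

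The series measured lung RNA of male Fischer 344 rats, bought at 3 months of age, to ask what a high-fat diet does to the lung's response to inhaled silica. The regular diet supplied 18% of its energy as fat and the high-fat diet 60%, and feeding of either began before the exposure and went on to the end. Rats inhaled either air or crystalline silica (15 mg per cubic metre, 6 hours daily, 5 days), and lungs were taken 3 or 9 months afterwards. RNA came from a piece of lung, so fewer cells of a type and less RNA per cell cannot be told apart. The 3-month rats were 4 fed the regular diet and kept in air, and 5 each for regular diet and silica, high-fat diet and air, and high-fat diet and silica. At 9 months there were 5 regular-diet rats exposed to silica and 6 rats in each of the other groups.

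hnRNPs coat nascent transcripts in the nucleus and often hold back the use of nearby splice sites, while SR proteins bind exonic enhancers and help the spliceosome to assemble there. Khdrbs1 (Sam68) and Tardbp (TDP-43) are RNA-binding proteins that work beside them, and many genes of both families limit their own output by splicing in exons that expose the transcript to nonsense-mediated decay. Almost every cell type expresses these genes, so they mark no single cell of the lung. The counts were made per gene and hold no information on exons or isoforms.

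Library totals ran from 3078216 to 8319382 counts, and the ranges of both time points overlapped. The share of counts on Rnr1 and Rnr2 lay between 0.605% and 1.66% in every library at 3 months. At 9 months it was 0.375% to 2.29% in regular-diet air rats, 2.60% to 5.35% in regular-diet silica rats, 4.62% to 7.19% in high-fat air rats and 7.29% to 7.85% in high-fat silica rats. The tables do not say whether these 2 symbols stand for nuclear or mitochondrial ribosomal RNA, and the share is used here only as a property of a library. Summed CPM of the neutrophil markers S100a8 and S100a9 at 9 months was 73.8 to 280.5 in regular-diet air rats, 430.0 to 1252 in regular-diet silica rats, 106 to 213 in high-fat air rats and 763 to 1021 in high-fat silica rats. The lung epithelial markers were present in all libraries, while Col1a2, a collagen gene of fibroblasts, was listed at 0 in all libraries at 9 months. Genes of heart muscle (2.60 to 475 summed CPM at 9 months) varied between rats within groups.

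Nearly all of these genes were well covered. Apart from Hnrnpc and Srsf12, the lowest count of any kept gene in any library was 50 (Hnrnpr) and the highest 5141 (Hnrnpu). Hnrnpc had 1 to 60 counts per library at 3 months and 2 to 14 at 9 months, and Srsf12 had 2 to 10 and 0 to 14. A separate row, Srsf5-2, lay outside the naming rule, and how reads were split between it and Srsf5 is uncertain. The symbol Hnrnpd had no row in the count tables as used here and was not analysed.

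At 9 months the regular-diet rats that breathed air had the lowest mean levels of Khdrbs1, Tardbp, Hnrnpul2 and Srsf2. Levels are given in CPM, a gene's counts over its library's size after scaling by the trimmed mean of M values (TMM) within a time point, and are not compared between the time points, whose tables were scaled apart. Khdrbs1, a STAR-family protein that couples signalling to splicing, was at 34.99, 47.84 and 50.51 CPM (lowest, median and highest of 6 rats) on the regular diet in air. With silica on that diet the 5 rats read 63.37, 70.64, 79.86, 71.23 and 63.77 CPM. On the high-fat diet Khdrbs1 ranged from 74.06 to 78.83 CPM in air (median 77.20) and from 70.68 to 85.04 CPM with silica (median 76.14). Each of the 6 regular-diet air rats was thus below every one of the other 17 rats for Khdrbs1.

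Tardbp, which binds UG-rich RNA and keeps cryptic exons out of transcripts, was at 103.0, 118.8 and 138.2 CPM (lowest, median, highest) on the regular diet in air. The 5 regular-diet silica rats had 145.4, 157.1, 172.2, 150.9 and 160.6 CPM. In high-fat rats Tardbp was 154.5, 160.9 and 167.0 CPM in air and 134.6, 147.9 and 159.1 CPM with silica. The regular-diet air rats did not overlap with the regular-diet silica rats or the high-fat air rats, but overlapped with the high-fat silica rats.

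Hnrnpul2, a member of the hnRNP U family of nuclear scaffold proteins, was at 84.59, 118.1 and 139.9 CPM in regular-diet air rats and at 157.8, 167.4 and 179.6 CPM in high-fat air rats (lowest, median, highest). Its 5 regular-diet silica rats read 145.6, 137.1, 165.4, 161.2 and 171.2 CPM, of which the lowest fell within the air range. Srsf2, the SR protein also known as SC35, was at 155.6, 167.9 and 188.8 CPM on the regular diet in air. The Srsf2 level of its silica counterparts was 199.1, 226.4, 231.5, 224.9 and 216.4 CPM, all above the air rats.

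**Figure D1:**
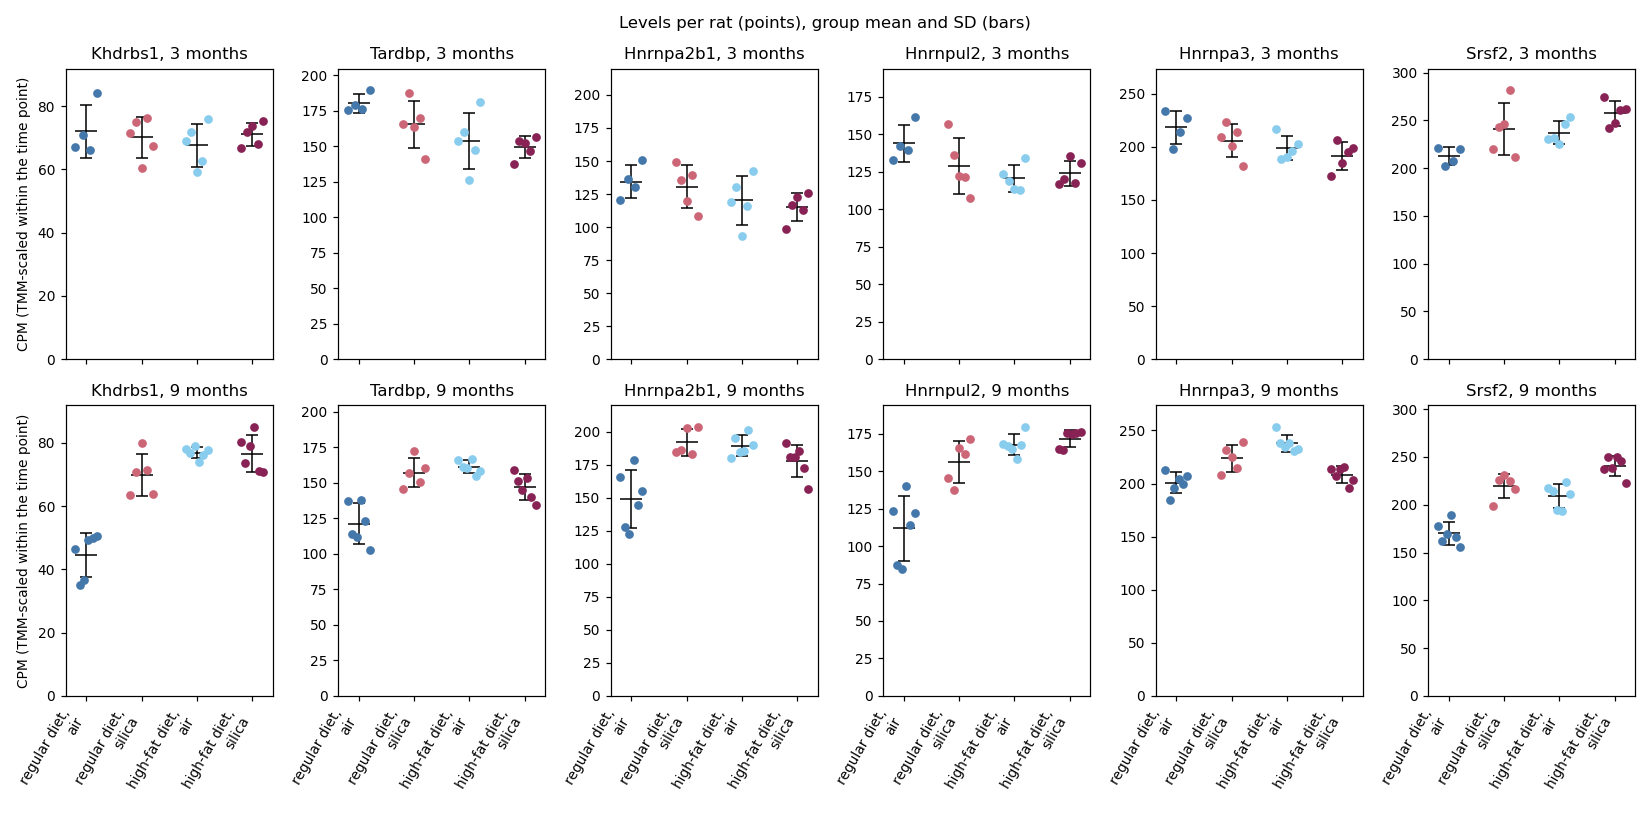
CPM (vertical axis, from 0) of Khdrbs1, Tardbp, Hnrnpa2b1, Hnrnpul2, Hnrnpa3 and Srsf2 by group at 3 months (top) and 9 months (bottom), with 1 point per rat and bars for the group mean and SD. At 9 months the regular-diet air rats (34.99 to 50.51 CPM) lie below all other rats for Khdrbs1, as they do for Srsf2, while their ranges overlap with at least 1 other group for Tardbp, Hnrnpa2b1, Hnrnpul2 and Hnrnpa3, and at 3 months the groups overlap for Khdrbs1.

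Silica on the regular diet at 9 months went with higher levels of 14 of the 28 genes tested and lower levels of 2. Among all 15276 genes tested, 24.5% were called higher and 20.6% lower (edgeR quasi-likelihood test, adjusted p below 0.05). The median log2 fold change was 0.13 over these genes and 0.00 over all genes. Khdrbs1 rose by 0.64 ± 0.08 on the log2 scale (± SE here and below, 1.56-fold, adjusted p = 5.97e-07). Tardbp rose 1.30-fold (0.37 ± 0.06, adjusted p = 3.4e-05) and Srsf2 rose 1.29-fold (0.37 ± 0.05, adjusted p = 2.85e-06).

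The calls were unequally spread over the 2 families on the regular diet, though the difference between the families was not tested. Of 16 Hnrnp genes, 10 rose and 1 fell, and of 10 Srsf genes, 2 rose and 1 fell. In the A/B group, whose members bind UAG-containing RNA and repress exons, Hnrnpa1 rose by 0.39 ± 0.08, Hnrnpa2b1 by 0.36 ± 0.07 and Hnrnpa3 by 0.16 ± 0.04 on the log2 scale. In the U group, Hnrnpul2 rose by 0.48 ± 0.09, Hnrnpul1 by 0.23 ± 0.05 and Hnrnpu by 0.17 ± 0.05. Hnrnpl and its relative Hnrnpll, which bind CA-rich RNA and regulate alternative exons in T cells, rose by 0.25 ± 0.06 and 0.22 ± 0.06. The H/F group, which binds runs of G, was split: Hnrnph3 rose by 0.40 ± 0.10 and Hnrnph2 by 0.13 ± 0.05, Hnrnph1 fell by 0.15 ± 0.05, and Hnrnpf was at 0.08 ± 0.05 without a call. The other Srsf calls were Srsf4, which rose by 0.23 ± 0.07, and Srsf3, the smallest SR protein, which fell by 0.21 ± 0.07.

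Rats did not overlap between air and silica for 7 of the 28 genes on the regular diet at 9 months, all 7 higher with silica. Over all genes tested, 14% were higher in every silica rat and 9.8% lower in every silica rat. These genes were Khdrbs1, Srsf2, Tardbp, Hnrnpa2b1, Hnrnpl, Hnrnpul1 and Srsf10. Of these, Srsf10 was not called (0.12 ± 0.06, adjusted p = 0.0821, edgeR quasi-likelihood test).

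On the high-fat diet at 9 months, silica went with lower levels of 9 of the 28 genes and higher levels of 3. The share of all genes was 24.9% lower and 26.7% higher (edgeR quasi-likelihood test). The median log2 fold change was -0.01 over these genes and 0.00 over all genes. Neither Khdrbs1 (-0.01 ± 0.08, interval of 2 SE on either side -0.16 to 0.15) nor Tardbp (-0.13 ± 0.06, adjusted p = 0.0689, edgeR quasi-likelihood test) was called. The genes that fell were Hnrnph1 (-0.26 ± 0.04), Hnrnpa3 (-0.19 ± 0.04), Hnrnpm (-0.14 ± 0.05), Hnrnpdl (-0.11 ± 0.04), Srsf10 (-0.24 ± 0.06), Srsf3 (-0.21 ± 0.07), Srsf7 (-0.19 ± 0.08), Srsf5 (-0.17 ± 0.05) and Srsf1 (-0.13 ± 0.04). Those that rose were Hnrnph3 (0.26 ± 0.09), Srsf2 (0.20 ± 0.05) and Hnrnpul1 (0.19 ± 0.05). The 6 Srsf genes called with silica on this diet were thus 5 lower and 1 higher.

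Silica effects on the 2 diets come from separate rats, so their calls can be set against each other. All 3 genes that rose on the high-fat diet were among the 14 that rose on the regular diet, and the 2 that fell on the regular diet, Hnrnph1 and Srsf3, were among the 9 that fell on the high-fat diet. Shared calls were not counted over all genes, so this overlap cannot be read as particular to these genes. Hnrnph1, whose protein binds G-runs beside exons, was at 331.9, 352.3 and 360.4 CPM in regular-diet air rats (lowest, median, highest), and the 5 silica rats read 299.2, 296.0, 334.3, 299.6 and 345.1 CPM. In high-fat rats Hnrnph1 was at 344.3, 350.4 and 384.3 CPM in air and at 280.4, 296.5 and 312.3 CPM with silica. Silica and air rats did not overlap for Hnrnph1 on the high-fat diet, and overlapped on the regular diet. Hnrnpa3 was the only gene called in opposite directions by silica on the 2 diets.

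In air, the high-fat diet at 9 months went with higher levels of 14 of the 28 genes and lower levels of none. Among all genes tested, 8.16% were called higher and 7.06% lower (edgeR quasi-likelihood test). The median log2 fold change was 0.18 over these genes and -0.01 over all genes. Khdrbs1 rose 1.72-fold (0.78 ± 0.08, adjusted p = 8.43e-07), Hnrnpul2 1.49-fold (0.58 ± 0.09, adjusted p = 6.71e-05) and Tardbp 1.33-fold (0.41 ± 0.06, adjusted p = 6.85e-05). The A/B genes rose as well, Hnrnpa1 by 0.35 ± 0.08, Hnrnpa2b1 by 0.34 ± 0.07 and Hnrnpa3 by 0.25 ± 0.04. Called Srsf genes were Srsf4 (0.36 ± 0.07), Srsf2 (0.30 ± 0.05) and Srsf10 (0.18 ± 0.05). The remaining called genes were Hnrnph3, Hnrnpl, Hnrnpu, Hnrnpm and Hnrnpdl, with log2 fold changes from 0.18 to 0.41.

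For 11 of the 28 genes every high-fat air rat was above every regular-diet air rat at 9 months, against 3.37% of all genes. For 1 gene, Hnrnpf, every high-fat rat was below, against 2.68% of all genes, and its log2 fold change of -0.13 ± 0.05 was not called (adjusted p = 0.0538, edgeR quasi-likelihood test). The diet comparison in air and the silica comparison on the regular diet share the 6 regular-diet air rats. The rise of a gene in both of them is therefore not independent, and the values stand side by side: Khdrbs1 0.78 and 0.64, Tardbp 0.41 and 0.37, Hnrnpul2 0.58 and 0.48, Srsf2 0.30 and 0.37 on the log2 scale. With silica in both groups, the diet comparison called 1 of the 28 genes higher, Srsf4 (0.27 ± 0.07, adjusted p = 0.0332, edgeR quasi-likelihood test), and none lower, where 1.82% and 1.7% of all genes were called. That call for Srsf4 was lost when any of 6 of the 11 rats was left out.

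**Figure D2:**
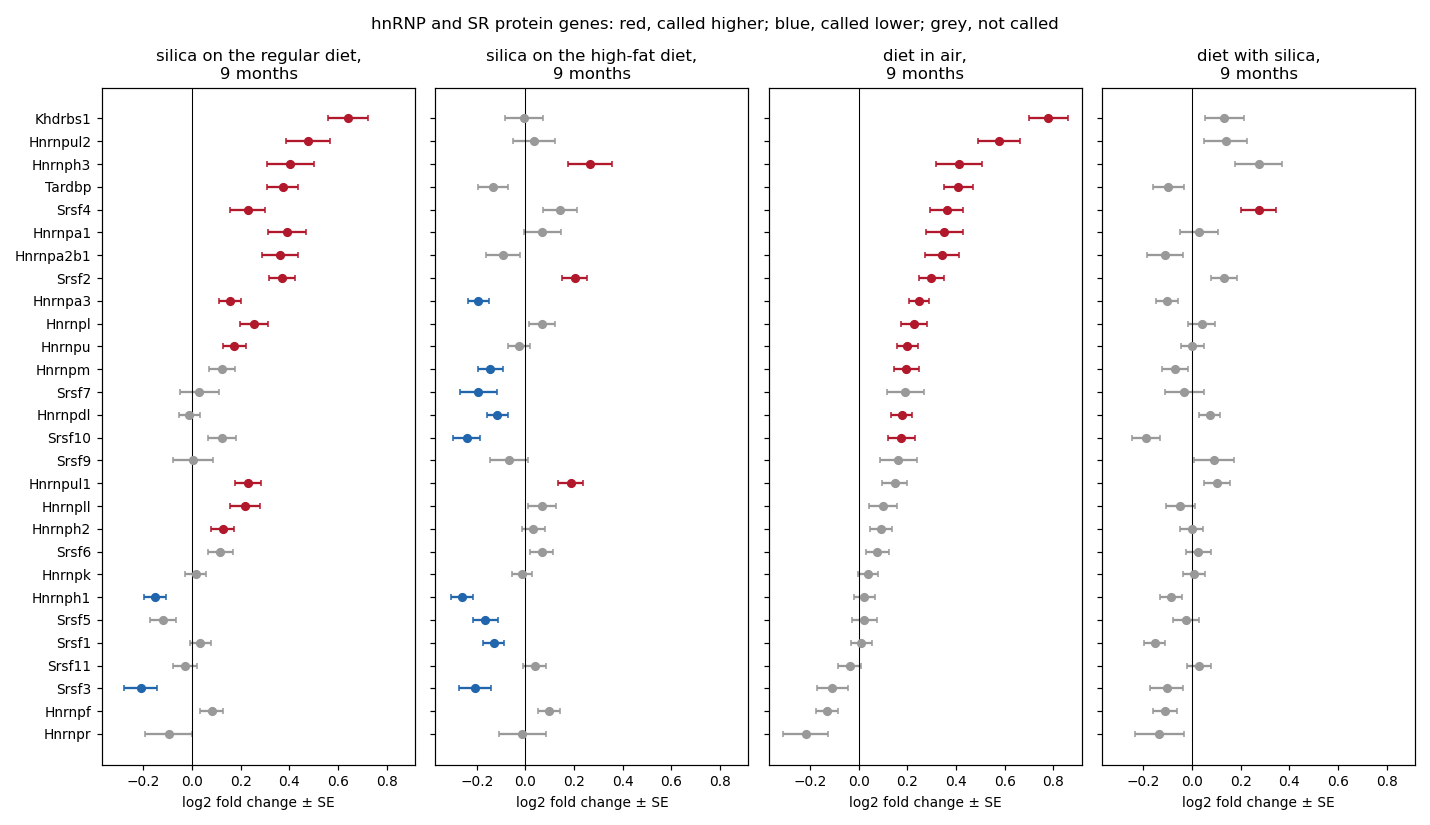
Log2 fold change (horizontal axis, bars are ± 1 SE) of the 28 genes tested at 9 months in 4 comparisons, in the order of the diet comparison in air, with genes called higher in red, called lower in blue and not called in grey. Khdrbs1 stands at 0.64 and -0.01 for silica on the regular and the high-fat diet, at 0.78 for diet in air and at 0.13 for diet with silica.

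The interaction, which asks whether silica changed a gene differently on each diet, was called for 5 of the 28 genes at 9 months, all lower on the high-fat diet. Of all genes tested, 0.543% were called lower and 0.55% higher (edgeR quasi-likelihood test). Khdrbs1 had a difference of -0.65 ± 0.11, Tardbp of -0.51 ± 0.09 and Hnrnpa3 of -0.35 ± 0.06 (adjusted p = 0.00553 for each of the 3, edgeR quasi-likelihood test). Hnrnpa2b1 had -0.45 ± 0.10 (adjusted p = 0.0273) and Srsf10 -0.36 ± 0.08 (adjusted p = 0.0257). The estimate was below 0 for 24 of the 28 genes, with a median of -0.14 against 0.00 over all genes. Leaving out rat 5 of the regular-diet silica group or rat 5 of the high-fat silica group left 3 of the 5 calls, those of Khdrbs1, Tardbp and Hnrnpa3.

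Rats of the 4 groups show how these differences were made up. Hnrnpa2b1, which directs RNA transport and exon skipping, was at 122.2, 150.0 and 178.6 CPM (lowest, median, highest) on the regular diet in air, and the 5 silica rats on that diet had 184.4, 186.2, 202.6, 183.1 and 203.7 CPM. On the high-fat diet Hnrnpa2b1 was at 180.2, 187.5 and 201.2 CPM in air and at 156.6, 180.9 and 191.6 CPM with silica. The regular-diet groups were separate for Hnrnpa2b1 and the high-fat groups overlapped.

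Hnrnpa3 ran from 184.1 to 212.4 CPM on the regular diet in air (median 202.0), and its 5 silica rats had 208.1, 231.6, 225.2, 214.6 and 239.0 CPM. On the high-fat diet Hnrnpa3 was at 231.0, 236.5 and 253.4 CPM in air and 195.4, 210.5 and 215.3 CPM with silica. Air and silica rats were therefore separate on the high-fat diet, with silica lower, and overlapped on the regular diet. Srsf10, an SR protein that acts as a repressor when dephosphorylated, was at 109.6, 114.5 and 118.1 CPM on the regular diet in air and at 125.7, 119.2, 125.6, 119.1 and 133.5 CPM in the silica rats. Srsf10 was at 118.9, 129.3 and 140.9 CPM in high-fat air rats and 94.73, 108.4 and 127.1 CPM in high-fat silica rats, so the sign of its silica difference turned with the diet.

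At 3 months few of these genes were called. Silica on the regular diet lowered 2 of 29 genes and raised none, against 6.6% and 10.2% of the 15234 genes tested. These were Hnrnph1 (-0.23 ± 0.06, adjusted p = 0.00973, edgeR quasi-likelihood test) and Srsf7 (-0.19 ± 0.06, adjusted p = 0.033). For Hnrnph1 the 4 air rats had 425.5, 435.3, 440.4 and 427.8 CPM and the 5 silica rats 421.9, 383.6, 327.4, 352.7 and 356.0 CPM, without overlap. This count depended on single rats: it was 9 (7 lower, 2 higher) without rat 1 of the regular-diet silica group, 4 without rat 2 of that group, and 1 without rat 4 of that group or without rat 1 or 4 of the regular-diet air group.

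Silica on the high-fat diet at 3 months raised 1 of 29 genes, Hnrnph3 (0.21 ± 0.06, adjusted p = 0.0191, edgeR quasi-likelihood test), and lowered none, against 9.23% and 8.19% of all genes. The 5 high-fat air rats had 41.78, 46.63, 41.73, 41.40 and 46.20 CPM of Hnrnph3, and the 5 silica rats 51.66, 53.32, 48.18, 46.80 and 51.33 CPM. The silica rats were all higher, though the groups nearly touched, and without rat 1 of the high-fat air group Hnrnph3 was no longer called (adjusted p = 0.0548). Hnrnph1 was lower in every silica rat on this diet too, without a call (-0.15 ± 0.06, adjusted p = 0.0658).

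The diet comparison in air at 3 months called 1 gene lower, Hnrnph1 (-0.22 ± 0.06, adjusted p = 0.0465, edgeR quasi-likelihood test), and none higher, against 1.3% and 1.65% of all genes. That call was lost whichever of the 9 rats was left out. Every high-fat rat was lower for 6 of the 29 genes (4.64% of all genes) and higher for 1 (5.32%). An unadjusted p below 0.05 was reached by 13 of the 29 genes, 2 of them positive (edgeR quasi-likelihood test). Over all genes these shares were 21% and 11.3%. The median log2 fold change was -0.10 over these genes and -0.00 over all genes, where that of these genes at 9 months was 0.18. No gene was called for diet with silica, where 0.295% of all genes were called higher and 0.407% lower. The interaction at 3 months called none of the 29 genes and none of all genes (edgeR quasi-likelihood test), while DESeq2 called 0 of the 29 and 1 of all genes. At an unadjusted p below 0.05 it had 3 of these genes, Hnrnph3, Hnrnpdl and Srsf7, and 6.5% of all genes. Khdrbs1 and Tardbp were not called in any comparison at 3 months. Their silica estimates on the regular diet were -0.04 ± 0.08 and -0.12 ± 0.08.

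On the regular diet, the silica log2 fold change at 9 months minus that at 3 months was called above 0 for 6 of the 30 genes tested in both tables and below 0 for none. Of all 15759 genes, 3.71% were called above 0 and 3.07% below 0 (edgeR quasi-likelihood test). A difference below 0 can also mean a stronger lowering by silica at 9 months. Differences of the log2 fold changes were 0.68 ± 0.12 for Khdrbs1 (adjusted p = 0.000525), 0.63 ± 0.13 for Hnrnpul2, 0.54 ± 0.13 for Hnrnph3, 0.49 ± 0.11 for Tardbp, 0.28 ± 0.07 for Hnrnpu and 0.24 ± 0.07 for Hnrnpul1. Time after exposure, age and count table cannot be told apart in this comparison. The count was 10 without rat 1 of the regular-diet silica group at 9 months. With the Rnr1 and Rnr2 share as a covariate only Khdrbs1 was called, where calls over all genes went from 1068 to 284. The call of Hnrnpu was lost when any 1 of 7 of the 20 rats was left out (adjusted p up to 0.0913, edgeR quasi-likelihood test). Those 7 rats were 3 and 4 of the air group and 3, 4 and 5 of the silica group at 3 months, and 2 and 3 of the air group at 9 months. On the high-fat diet neither edgeR nor DESeq2 called any of the 30 genes for a change of the silica effect with time. There the difference was called above 0 for 6.55% of all genes and below 0 for 4.12% (edgeR). Without adjustment 3 of the 30 genes had a p below 0.05, against 25% of all genes.

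**Figure D3:**
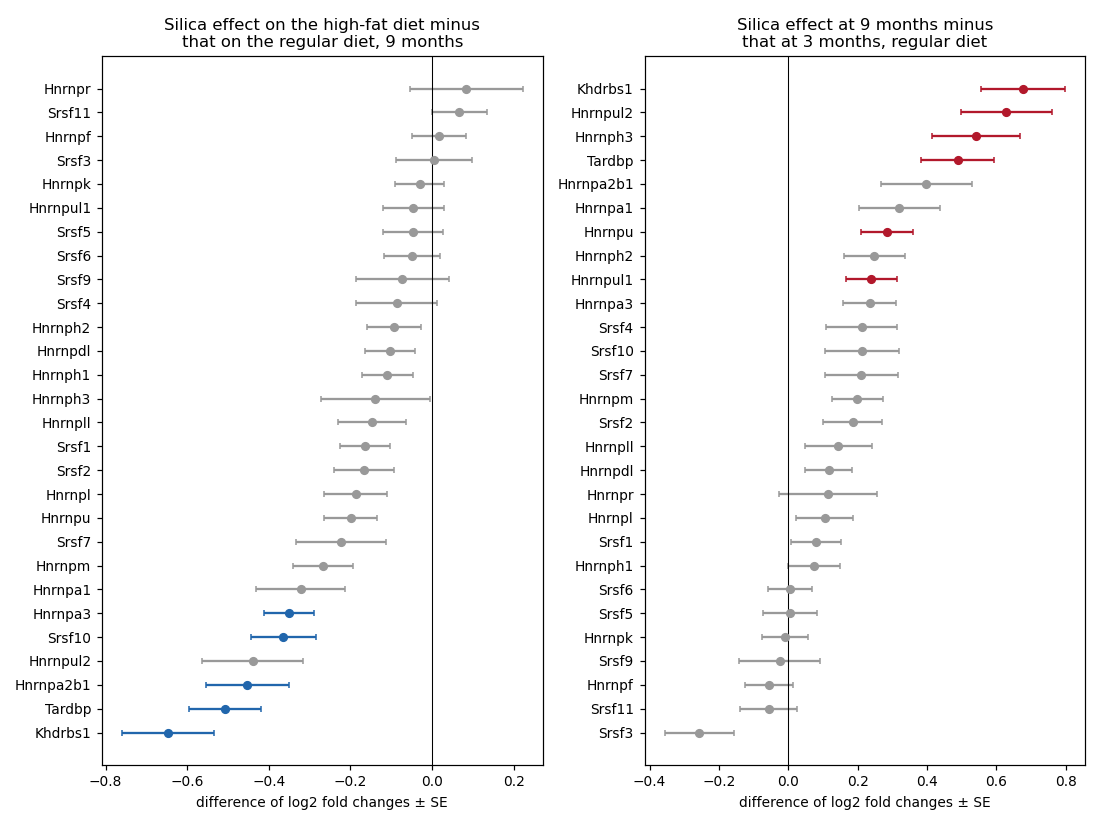
Difference of log2 fold changes (horizontal axis, bars are ± 1 SE) for the 28 genes tested at both times: left, silica effect on the high-fat diet minus that on the regular diet at 9 months; right, silica effect at 9 months minus that at 3 months on the regular diet. Blue marks genes called lower and red genes called higher, with Khdrbs1 at -0.65 on the left and 0.68 on the right.

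Because groups differed in the share of counts on Rnr1 and Rnr2 at 9 months, each gene was also related to that share between rats of the same group, in a fit with the groups as terms. At 3 months the share ran from 0.605% to 1.66% over all libraries, and over less than a percentage point within each group. Slopes per percentage point therefore reach past the range of any single group. There 25 of 29 genes had a positive slope and none was called. Over all genes tested 0.0263% were called, all positive (edgeR quasi-likelihood test). An unadjusted p below 0.05 was reached by 11 of the 29 genes, all with a positive slope. Of all genes tested, 4.39% had such a p together with a positive slope. DESeq2 called 1 of the 29 genes and 31 of all genes. The median slope was 0.14 log2 units per percentage point over these genes and -0.02 over all genes.

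Within groups at 3 months, Tardbp had a slope of 0.37 ± 0.08 log2 units per percentage point (unadjusted p = 9.03e-05, adjusted p = 0.116, edgeR quasi-likelihood test). Hnrnpa2b1 had 0.43 ± 0.11, Srsf10 0.37 ± 0.10, Khdrbs1 0.34 ± 0.09, Hnrnpa1 0.28 ± 0.09 and Hnrnpa3 0.24 ± 0.07, with unadjusted p from 0.000736 to 0.00508. The other genes with an unadjusted p below 0.05 were Hnrnpul2, Hnrnpll, Srsf7, Hnrnpdl and Hnrnpc. The slope of Hnrnpc, 2.56 ± 0.62, rested on rat 4 of the regular-diet air group, whose 60 counts were the most of any library, and was 1.32 without that rat. All 5 genes called in the interaction at 9 months were among the 11, none of which was called by edgeR after adjustment. This overlap was not counted over all genes called in the interaction, so a link between the slopes and the interaction was not tested. The 3-month slopes use the same 19 rats as the silica and diet comparisons at 3 months, and none of the 9-month rats.

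The same fit at 9 months gave no slope that stood out. None of the 28 genes was called, 0% of all genes were called (0 genes by DESeq2 too), and an unadjusted p below 0.05 was reached by 0 of the 28 genes and by 5.16% of all genes (edgeR quasi-likelihood test). The median slope was 0.01 over these genes and 0.00 over all genes. For Khdrbs1 the slope was -0.03 ± 0.04 and for Tardbp 0.02 ± 0.03 log2 units per percentage point. At 9 months the 3 groups of 6 rats also allowed a correlation per gene and group. Over these 84 relations the smallest adjusted p was 0.964 for Pearson's r and 0.927 for Spearman's rho (exact permutation over 720 orders, two-sided, Benjamini-Hochberg). With only 720 orders, no single relation on its own could have passed this adjustment, so the lack of calls says little. Before adjustment, Pearson's p was below 0.05 for 1 of 28 genes in high-fat air rats and for 0 in the other groups of 6 (exact permutation). For Khdrbs1 among regular-diet air rats, r was -0.19 (exact permutation p = 0.739) and rho -0.31 (exact permutation p = 0.564). Without the 2 rats of a group farthest from its median share, r for Khdrbs1 was 0.86 in regular-diet air rats. It was -0.16 in high-fat air rats and -0.9996 in high-fat silica rats. Those values rest on the few rats left in each group.

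**Figure D4:**
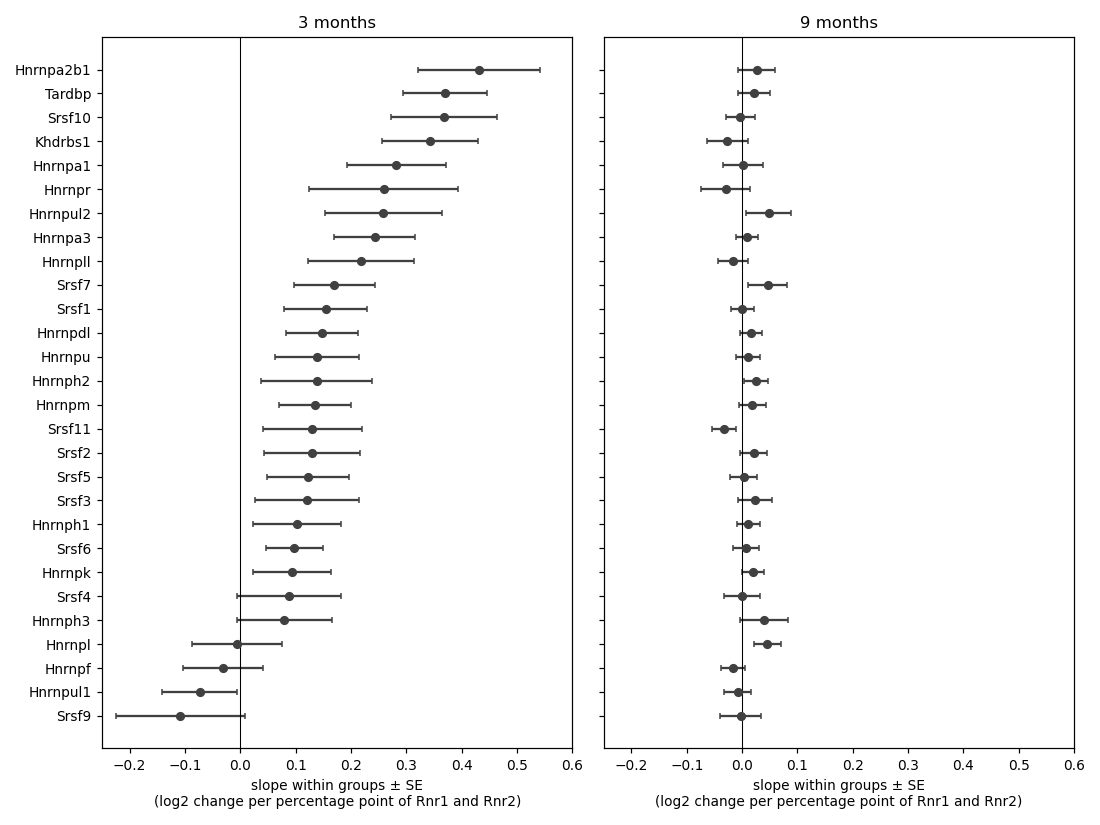
Slope of each gene on the Rnr1 and Rnr2 share within groups (horizontal axis, log2 units per percentage point, bars are ± 1 SE) at 3 months (left) and 9 months (right) for the 28 genes tested at both times, in the order of the 3-month slopes. At 3 months Hnrnpa2b1 and Tardbp lead with 0.43 and 0.37, and at 9 months the slopes lie around 0.

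Across the 9-month groups, mean levels of Khdrbs1, Tardbp and Srsf10 did not rise with the share throughout. These genes were all called lower in the interaction, which uses the same rats. The lack of a rise in the high-fat silica rats thus partly follows from that choice of genes. The share rose from the regular-diet air rats (mean 1.22%) through the regular-diet silica rats (3.67%) and the high-fat air rats (6.21%) to the high-fat silica rats (7.66%). Mean Khdrbs1 was 44.60 ± 7.0 CPM, 69.77 ± 6.74, 76.88 ± 1.70 and 76.56 ± 5.73 CPM in that order (SD, n = 6, 5, 6 and 6). Mean Tardbp was 121.3 ± 14.3, 157.2 ± 10.2, 161.3 ± 4.60 and 147.0 ± 9.06 CPM, and mean Srsf10 was 114.3 ± 3.11, 124.6 ± 5.94, 129.1 ± 8.72 and 109.3 ± 10.5 CPM. For Khdrbs1 the last 2 means were nearly equal (-0.01 ± 0.08 on the log2 scale for silica on the high-fat diet). For Tardbp and Srsf10 the mean of the group with the highest share was below those of the 2 groups before it in the order. Against the high-fat air rats that was called for Srsf10 (-0.24 ± 0.06) and not for Tardbp (-0.13 ± 0.06), and against the regular-diet silica rats for neither gene (edgeR quasi-likelihood test, adjusted p = 0.0664 for Srsf10 and 0.454 for Tardbp). Estimates of Hnrnpul2, Hnrnph3 and Srsf4 did rise in the order of the share. Against regular-diet air rats, regular-diet silica rats were higher by 0.48, 0.40 and 0.23 on the log2 scale. High-fat air rats were higher by 0.58, 0.41 and 0.36. Silica on the high-fat diet added 0.04 ± 0.09, 0.26 ± 0.09 and 0.14 ± 0.07, called for Hnrnph3 only. This order was not tested.

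**Figure D5:**
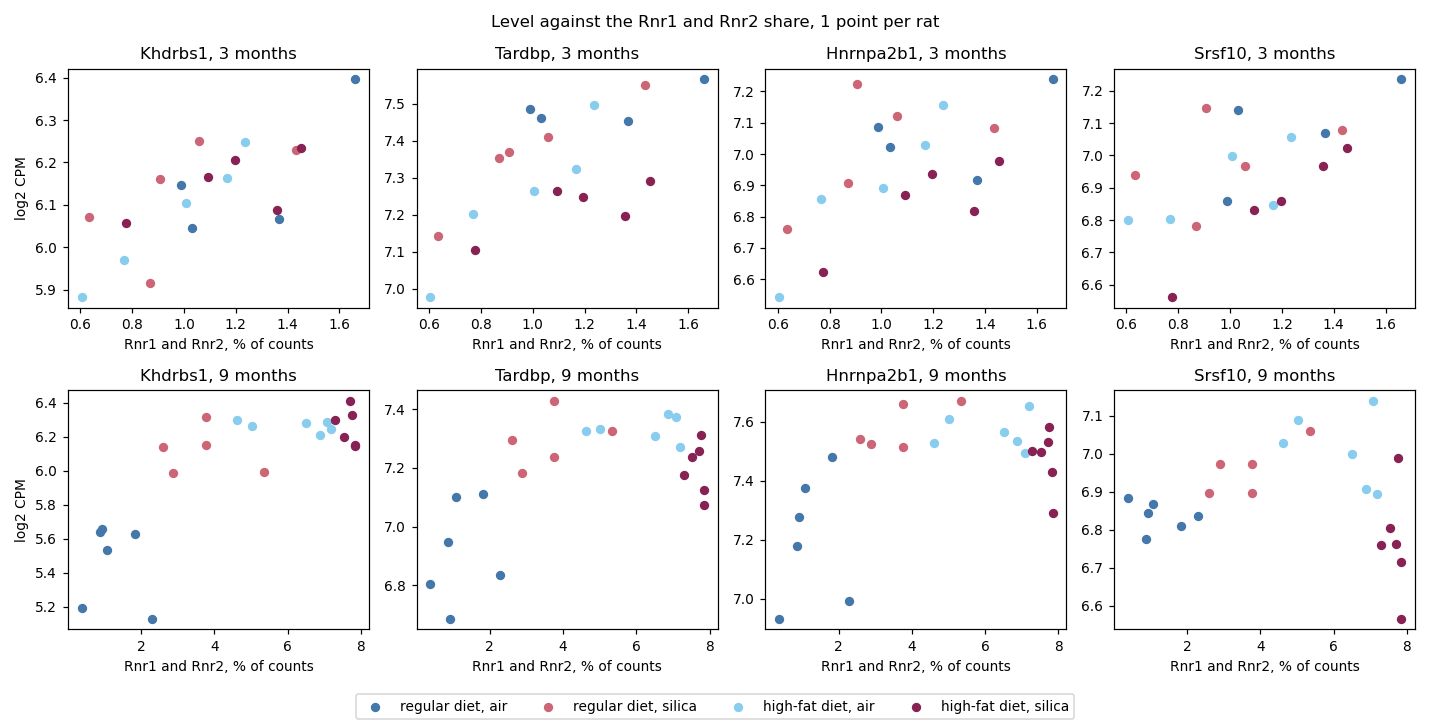
Log2 CPM of Khdrbs1, Tardbp, Hnrnpa2b1 and Srsf10 (vertical axis) against the share of counts on Rnr1 and Rnr2 (horizontal axis, percent) at 3 months (top) and 9 months (bottom), with 1 point per rat and colours for the groups. The 9-month regular-diet air rats (0.375% to 2.29%) stand apart at low share, and in level for Khdrbs1, while the high-fat silica rats (7.29% to 7.85%) lie at the far right, where their levels overlap with the regular-diet air rats for Tardbp, Hnrnpa2b1 and Srsf10.

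Adding the share as a covariate to the 9-month fit left 9 of the 16 calls for silica on the regular diet, where calls over all genes went from 6885 to 4561. All 16 estimates kept their sign, and the median estimate over these genes was 0.13 with and without the share. The median SE was 1.49 times that without the share. Khdrbs1 was then at 0.71 ± 0.12 (adjusted p = 0.000105) and Tardbp at 0.32 ± 0.10 (adjusted p = 0.013, edgeR quasi-likelihood test). For silica on the high-fat diet the covariate left 11 of the 12 calls, and calls over all genes went from 7875 to 6710. It left 4 of the 5 interaction calls, those of Khdrbs1, Tardbp, Hnrnpa3 and Srsf10, and calls over all genes went from 167 to 116. It left none of the 14 calls for diet in air, where 13 of the 14 estimates kept their sign, and the median SE was 2.57 times that without the share. Estimates for diet in air with and without the share were 0.91 ± 0.20 and 0.78 ± 0.08 for Khdrbs1, 0.34 ± 0.20 and 0.35 ± 0.08 for Hnrnpa1, 0.30 ± 0.16 and 0.41 ± 0.06 for Tardbp, and -0.00 ± 0.13 and 0.23 ± 0.05 for Hnrnpl. In that fit 1 of all 15276 genes was called for diet in air. The shares did not overlap at 9 months between the 2 air groups, between air and silica on either diet, or between the 2 silica groups. In each of these 4 comparisons the group and the share therefore cannot be told apart by the rats' values alone, and the covariate rests on slopes within groups.

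Other genes of the splicing machinery were followed as lists. Their counts stand against the shares of all genes at 9 months given above, 24.5% higher and 20.6% lower for silica on the regular diet, 26.7% and 24.9% on the high-fat diet, and 8.16% and 7.06% for diet in air. Of 15 other hnRNP-class proteins, all tested, 7 rose and 4 fell under silica on the regular diet, 2 rose and 5 fell on the high-fat diet, and 4 rose and none fell with the high-fat diet in air. Among them Pcbp1, a poly(C)-binding protein, rose by 0.97 ± 0.09 with silica on the regular diet and by 0.79 ± 0.09 with diet in air, and Taf15, an RNA-binding protein associated with transcription initiation, by 0.50 ± 0.09 and 0.58 ± 0.09. Pcbp1 and Taf15 were also called lower in the interaction (-0.60 ± 0.13 and -0.55 ± 0.13). The RNA helicase Dhx9, of the list of paraspeckle and nuclear matrix proteins, was also called there (-0.37 ± 0.08).

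Of 27 tested SR-related proteins and SR protein kinases, 6 rose and 4 fell at 9 months under silica on the regular diet, 5 rose and 7 fell on the high-fat diet, and 5 rose and 1 fell with diet in air. The kinase Srpk1, which phosphorylates SR proteins, rose by 0.33 ± 0.04 with silica on the regular diet and by 0.25 ± 0.04 on the high-fat diet, and the kinase Clk1 fell by 0.25 ± 0.06 and 0.29 ± 0.06. Of 42 core spliceosome genes, 10 rose and 2 fell with silica on the regular diet, 10 rose and 1 fell on the high-fat diet, and 10 rose and 2 fell with diet in air. For both silica comparisons the share of core spliceosome genes that rose was near that of all genes, and the share that fell was below it. Estimates above 0 were found for 34 of the 42 genes on the regular diet and 32 on the high-fat diet. Over all 15276 genes they were found for 7730 and 7649. The Sm protein gene Snrpd3 rose in all 3, by 0.92 ± 0.10, 0.39 ± 0.09 and 0.79 ± 0.10. No core spliceosome gene was called in the interaction.

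Genes of dividing cells were a measured background to these comparisons. Of 16 tested, 14 rose and none fell at 9 months in the regular-diet silica comparison, 15 rose and none fell on the high-fat diet, and none was called for diet in air. Summed CPM of Mki67 and Top2a was 42.0 to 61.9 in regular-diet air rats, 126 to 191 in regular-diet silica rats, 47.0 to 61.4 in high-fat air rats and 118.7 to 177 in high-fat silica rats. Their part in the silica comparisons of the hnRNP and SR genes was not tested. In the diet comparison in air, where 14 of the 28 genes rose, the ranges of Mki67 and Top2a overlapped between the groups. Other markers differed there: summed CPM of the alveolar macrophage genes Marco and Mrc1 was 268 to 386 on the regular diet and 198 to 254 on the high-fat diet, and the leukocyte gene Ptprc was at 384 to 416 and 343 to 383 CPM, both without overlap. The endothelial genes Pecam1 and Cdh5 summed to 608 to 878 and 799 to 962 CPM, with overlap. The part of these markers in the diet comparison was not tested.

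The region before the start site is shown for the 5 genes called in the interaction, since they share the sign of that difference. Their changes within each diet were not alike, as given above. RefSeq (build GRCr8) held promoter entries for 29 of the 30 genes, 33 entries in all, and 33469 entries over all genes. The 100 bases upstream of the start are printed 5′ to 3′ in the direction of transcription, with capitals for the motifs searched and found in them. The region of Khdrbs1 is chr5:147373449-147373548 (minus strand), of Tardbp chr5:164345205-164345304 (minus), of Hnrnpa2b1 chr4:81875887-81875986 (minus), of Hnrnpa3 chr3:80985834-80985933 (plus) and of Srsf10 chr5:153372216-153372315 (plus, the first of its 2 entries).
Khdrbs1: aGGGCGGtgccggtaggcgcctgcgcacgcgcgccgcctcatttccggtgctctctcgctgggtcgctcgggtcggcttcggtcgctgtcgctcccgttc
Tardbp: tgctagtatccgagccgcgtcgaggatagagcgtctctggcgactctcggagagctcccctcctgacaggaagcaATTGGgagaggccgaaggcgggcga
Hnrnpa2b1: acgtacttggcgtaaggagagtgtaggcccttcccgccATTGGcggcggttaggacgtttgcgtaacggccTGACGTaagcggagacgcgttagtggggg
Hnrnpa3: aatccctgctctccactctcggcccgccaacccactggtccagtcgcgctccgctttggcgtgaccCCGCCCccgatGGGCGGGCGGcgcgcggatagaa
Srsf10: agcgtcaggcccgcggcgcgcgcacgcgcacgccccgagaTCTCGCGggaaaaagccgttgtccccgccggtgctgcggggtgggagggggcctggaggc

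Motifs were searched on both strands of the 250 bases upstream of the start, where matches of different motifs could overlap. The GC box (GGGCGG) was in 69.7% of the 33 entries of these genes and in 30.5% of all entries, and the CCAAT box (CCAAT) in 60.6% and 34%. The ETS core (CGGAAG) was in 36.4% and 13.9%, and the CRE core (TGACGT) in 30.3% and 6.95%. The TATA box (TATAAA) was in 12.1% and 12.9%, NRF1's core (GCATGCG) in 6.06% and 2.93%, the TCTCGCG element in 6.06% and 2.05%, and the YY1 core (AAGATGG) in 3.03% and 4.62%. The median number of CpG in the window was 22 for these genes and 5 for all. The entries over all genes were not limited to genes with counts in these lungs. The differences in motifs and CpG therefore cannot be read as particular to this family. Among the 5 genes called in the interaction, Tardbp, Hnrnpa2b1 and Hnrnpa3 held a CRE core within the 250 bases, and Khdrbs1 held only the GC box of the 8 motifs.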

How the data were processed

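Lung RNA of 42 rats was sequenced from ribosome-depleted stranded libraries, per the labels' protocols. The authors deposited raw read counts per gene for each time point, in 1 table each, and no normalised values. Per the submitters' processing notes the tools included TopHat2 2.0.9, HTSeq 0.6.1, Trimmomatic 0.35 and Bowtie2 2.2.9, and the genome build was Rnor_6.0. The annotation and the strand setting of the counting are not given in the sources used here, so reads of overlapping or antisense genes may be shared.

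Genes were filtered with filterByExpr (minimum count 10), scaled by TMM and tested in R 4.3.3 with edgeR 4.0.16 (quasi-likelihood, 1 coefficient per group, all groups of a time point in 1 fit, and all 8 groups for differences over time). P-values were adjusted over all genes tested (Benjamini-Hochberg), and a gene was called at an adjusted p below 0.05. Slopes on the share of Rnr1 and Rnr2 came from the same fit with that share added. Totals of 3078216 to 8319382 counts per library set the precision. Each library carries its own rat tag, no tag is shared between groups, and no batch or date is given in the labels.

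The genes, the lists and the tests were chosen with earlier results of these data known. Named genes are a panel of 19 symbols (18 of them in the tables), the up to 5 called genes with the smallest p per direction and comparison, and up to 3 per direction from each list; a gene that this rule would name is not reported here. Other genes of the family called in a comparison are named beside them. Alternatives were RLE (relative log expression) size factors, leaving out Rnr1 and Rnr2, no filter, DESeq2 1.42.0, the share as a covariate and leaving out each rat.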

Additional observations from a re-analysis of the deposited data

Results flagged for a closer look

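Over 152 sets of values (18 panel genes and the Rnr1 and Rnr2 share in 8 groups), 3 had a rat far from the rest of its group by Dixon's criterion, where chance gives about 1 in 20, or 7.6. Rat 1 of the regular-diet air group at 3 months had 159 CPM of Hnrnpk, and the others 139 to 140.4. Rat 2 of the high-fat air group at 9 months had 384 CPM of Hnrnph1, and the others 344 to 353. Rat 3 of the high-fat silica group at 9 months had 157 CPM of Srsf6, and the others 146 to 150.3.

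The silica effect differed between the diets at 9 months, by the edgeR test of the difference itself, for Khdrbs1 (-0.65), Tardbp (-0.51), Hnrnpa2b1 (-0.45), Srsf10 (-0.36) and Hnrnpa3 (-0.35). It differed between 9 and 3 months on the regular diet, by the same test, for Khdrbs1 (0.68), Hnrnpul2 (0.63), Hnrnph3 (0.54), Tardbp (0.49), Hnrnpu (0.28) and Hnrnpul1 (0.24). Both sets of differences contain the 6 regular-diet air rats of 9 months.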

How the results depend on the processing

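None of 35 named results changed direction under the alternatives run. All 35 stayed on their side of the threshold with RLE size factors, with Rnr1 and Rnr2 left out and with DESeq2, 32 without a filter and 20 with the share as a covariate; the cause was not tested. Numbers of these genes called were as follows. Diet in air at 3 months gave 2 with RLE, 2 with Rnr1 and Rnr2 left out, 2 with DESeq2, 0 without a filter and 0 with the covariate. Diet with silica at 9 months gave 2, 2, 3, 0 and 0 under the same settings. Silica on the regular diet at 3 months gave 1 without a filter, silica on the high-fat diet at 3 months gave 2 with the covariate, and the 3-month slopes gave 1 with DESeq2. With the covariate, silica on the regular diet at 9 months gave 9, diet in air at 9 months 0 and the time difference on the regular diet 1.

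Leaving out each rat gave 1 to 9 for silica on the regular diet and 0 to 2 for silica on the high-fat diet at 3 months, 0 to 2 for diet in air at 3 months, 0 to 3 for diet with silica at 9 months, 3 to 7 for the interaction at 9 months, and 4 to 10 (regular diet) and 0 to 2 (high-fat diet) for the time differences. It gave 15 to 18 for silica on the regular diet, 9 to 13 for silica on the high-fat diet and 13 to 16 for diet in air at 9 months. No paired analysis was possible because the rats' tags are not shared between groups. The genes Hnrnpc and Srsf12 had too few counts for a firm statement.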
